A study of Mus musculus with 12 samples.

Results

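The macrophage and leukocyte genes described here are 38 genes of blood-derived immune cells, taken by gene symbol from the 24421 symbols of a bulk RNA-seq count table. Of the 38, 37 had a count in at least 1 library and 36 passed the filter on low counts. Cd163, a haemoglobin scavenger receptor, had no count in any library, and Lyz1, the Paneth cell form of lysozyme, had a level of 0 to 0.140 CPM (counts scaled to a common library total) and was not tested. Of the 36 tested, 35 had at least 10 counts in every library. Cd52, a small surface glycoprotein of leukocytes, ranged from 3 to 95 counts.

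The samples were whole lungs of wild-type CD-1 mouse fetuses, removed at embryonic day 12.5 and grown in Matrigel on a porous insert at an air-liquid interface. The day after isolation was Day 0. For the Day 2 groups 20% PEG-HCC, an 8-armed polymer carrying a coumarin group, was then added. In the Day 2 compression group the polymer was hardened around the lung with a two-photon laser so that growth was restricted for 2 days, and in the Day 2 control group it stayed uncrosslinked. Day 0, Day 2 control and Day 2 compression each hold 4 libraries, and all share strain, genotype, gestational age at isolation and Matrigel culture. The laser step is described for the compression group alone. The Day 2 groups thus differ in laser exposure, in crosslinked polymer and in restriction, and these cannot be told apart. Nothing in the labels says that each library came from its own fetus or litter, and p-values then measure the spread between these libraries, which may be technical.

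Macrophages are the first immune cells of the fetal lung. They descend from yolk sac and fetal liver progenitors, depend on the transcription factor PU.1 (encoded by Spi1) and on the growth factor receptor CSF1R, and clear dying cells and debris as organs take shape. They recognise targets through integrins, Fc receptors and complement C1q, signal through ITAM adaptors such as DAP12 (Tyrobp), and digest what they engulf with lysozyme, cathepsins and reactive oxygen made by NADPH oxidase. A lung explant has no blood supply, so its leukocytes are those present at isolation and their descendants. In bulk RNA, fewer cells of a type and less RNA per cell cannot be told apart.

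PU.1 binds purine-rich DNA around a GGAA core, and many of these genes are textbook targets of it. RefSeq promoter windows of GRCm38.p6, from 250 bases before to 50 bases after a gene start, were found for 30 of the 38 genes (36 windows, some of the same gene). The letters GAGGAAG, or CTTCCTC on the opposite strand, occurred in 14 of the 36 windows (38.9%) and in 13.6% of all 32851 windows. The longer GAGGAAGT occurred in 13.9% of the genes' windows and 3.20% of all windows, and the shorter GAGGAA, contained in both, in 61.1% and 28.3%. A match is a description of the sequence, not evidence of binding. The 100 bases upstream of 4 gene starts are shown 5′ to 3′ on the gene's strand, with the match in capitals, because these genes stand for an integrin subunit (Itgam), a lectin receptor (Mrc1), a lysosomal membrane protein (Laptm5) and a clotting factor subunit (F13a1) that are described below. Itgam lies at chr7:128062540-128062639 (+), Mrc1 at chr2:14229314-14229413 (+), Laptm5 at chr4:130913216-130913315 (+) and F13a1 at chr13:37050245-37050344 (-).
Itgam: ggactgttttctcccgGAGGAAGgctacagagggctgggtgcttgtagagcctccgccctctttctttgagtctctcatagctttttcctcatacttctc
Mrc1: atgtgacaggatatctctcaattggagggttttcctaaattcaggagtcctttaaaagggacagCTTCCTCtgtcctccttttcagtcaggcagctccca
Laptm5: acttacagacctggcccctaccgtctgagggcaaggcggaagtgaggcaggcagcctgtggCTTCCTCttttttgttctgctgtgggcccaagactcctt
F13a1: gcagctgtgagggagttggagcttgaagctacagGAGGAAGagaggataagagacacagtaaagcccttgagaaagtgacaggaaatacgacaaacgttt
The first match begins 84 bases before the start in Itgam, 36 in Mrc1, 39 in Laptm5 and 66 in F13a1.

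Total counts ranged from 13979871 to 33249761, and control replicate 4 had the lowest total at Day 2 (15452117). That library also held liver transcripts: the summed level of 14 hepatocyte genes was 2044 CPM there and at most 106 CPM in the other 11 libraries, with 638 CPM of Alb (albumin) and 745 CPM of Afp, a fetal serum protein. Compression replicate 1 was the one compression library with Xist RNA (2771 CPM), which controls 2 and 3 also carried (2414 and 2237 CPM). The 4 Day 0 libraries were at 0.171 to 0.229 CPM of Xist, so both Day 2 groups differ from Day 0 in it, and the fit held no term for it. Among pairs of one group, compression replicates 2 and 3 were the closest (mean chi-square per gene 4.04), against at least 7.37 in the others. Both carry 13 in their descriptions, 1 as 13A and the other as 13B, with no key in the labels, and whether they share a lung, fetus or litter is not known. They are counted as separate libraries (n = 4) and, as an alternative, summed to 1. Because control replicate 4 stood apart, counts of the 36 genes are given with and without it.

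The labelled tissue and cell types were checked against marker lists. All 8 endothelial markers tested were present and fell from Day 0 to Day 2 in both Day 2 groups. Of the T cell and innate lymphoid list 6 of 13 genes passed the low-count filter and of the B cell list 3 of 8. The T cell receptor subunits were near 0, with 1 count of Cd3e, 1 of Cd3d and 3 of Cd3g in all libraries together, and Ncr1, Ms4a1 and Pax5 had none. Other genes of these lists, which other cell types also express, were present: the kinase gene Lck stood at 4.51 to 7.53 CPM and the nuclear receptor gene Rora at 19.1 to 35.4 CPM. Il7r, Thy1 and Rora rose from Day 0 in both Day 2 groups, Il7r from 0.240 to 0.498 CPM at Day 0 to 0.933 to 3.26 in controls (log2 fold change 2.17, adjusted p = 8.34e-04) and 1.98 to 3.65 under compression. Of the monocyte list, 5 of 8 genes passed the low-count filter, and Ccr2, the receptor that draws monocytes into tissue, had 83 counts in all. Ly6c2 (1.43, adjusted p = 0.0140) and Ly6c1 (1.58, adjusted p = 0.00207) rose from Day 0 to control and also rose under compression, while Fn1 fell in controls. Of the yolk sac and fetal tissue macrophage list, 12 of 14 genes passed the filter. From Day 0, 3 of them rose in controls (22.6% of all genes) and 5 under compression (26.6%), and 0 fell. Granulocyte genes were low and uneven, with summed levels of 2.73 to 18.7 CPM (Day 0), 1.60 to 9.0 CPM (controls) and 5.32 to 20.7 CPM (compression). Of the macrophage markers among the 38 genes themselves, Cd163 alone had no count.

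**Figure D1:**
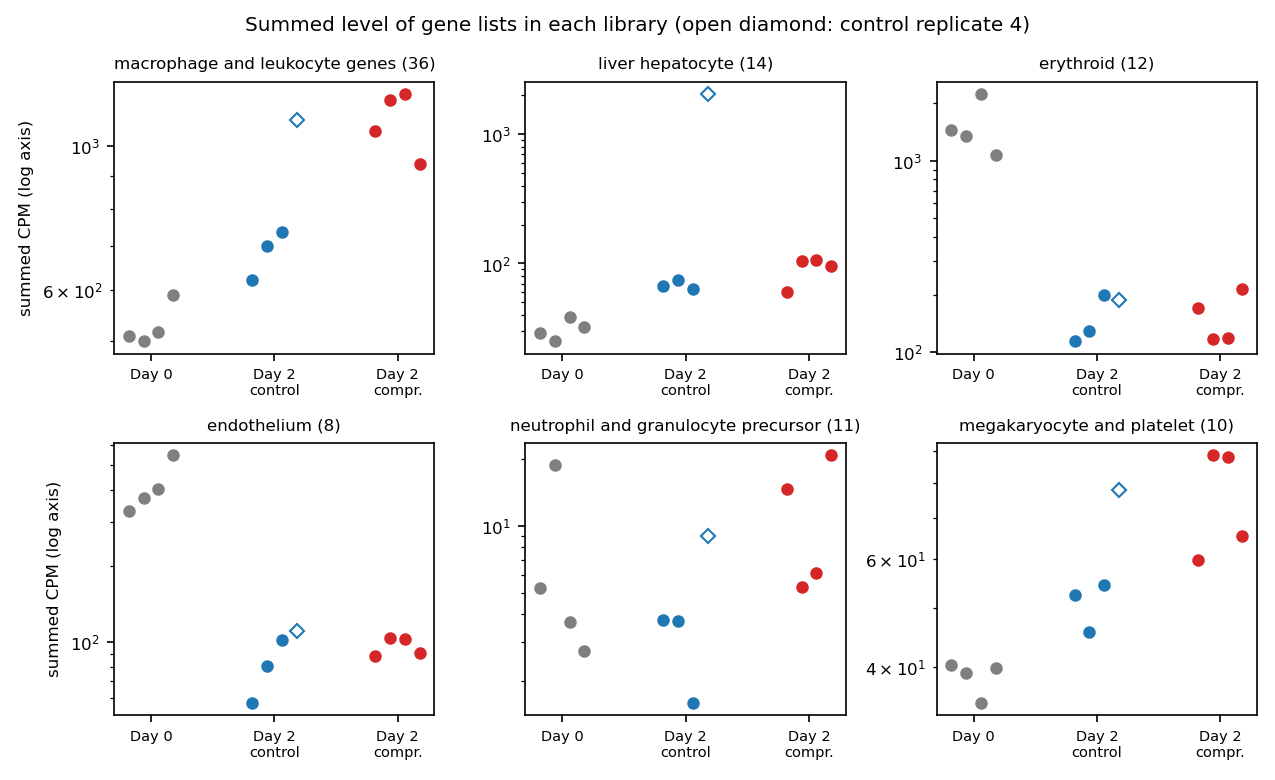
Summed CPM (log axis, a separate scale in each panel) of the macrophage and leukocyte genes and of 5 marker lists in each of the 12 libraries, with the number of genes in parentheses and control replicate 4 as an open diamond. The hepatocyte genes sum to 2044 CPM in control replicate 4 and to at most 106 CPM elsewhere, while its erythroid sum lies among the other Day 2 libraries.

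Set on a per-length scale (mean CPM per kilobase of exon), the highest genes at Day 0 were the complement genes C1qa (19.7) and C1qb (18.3), the lysosomal glycoprotein gene Cd68 (17.3) and Lyz2 (15.6), which encodes the macrophage form of lysozyme. At Day 2 Lyz2 ranked first in both groups, at 54.2 in controls and 104 under compression. Cd68, Tyrobp and the cathepsin gene Ctss ranked from 2 to 4 in both Day 2 groups. Cd52 and Ptprc, which encodes the pan-leukocyte antigen CD45, were among the lowest at Day 0, at 0.316 and 0.358. C1qb stood at 18.1 in controls and 18.2 under compression, next to its Day 0 value.

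Read library by library, the summed level of the 36 genes was 500 to 589 CPM at Day 0. Controls 1 to 3 stood at 622, 700 and 737 CPM, control 4 at 1098 CPM, and the compression libraries at 1056, 1179, 1204 and 939 CPM. Control 4 thus lay within the range of the compression libraries, and the other 3 controls between Day 0 and compression. On the mean log2 scale relative to Day 0, controls 1 to 3 stood at 0.103, 0.314 and 0.323, control 4 at 1.0, and the compression libraries at 1.04, 1.10, 1.13 and 0.838.

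**Figure D2:**
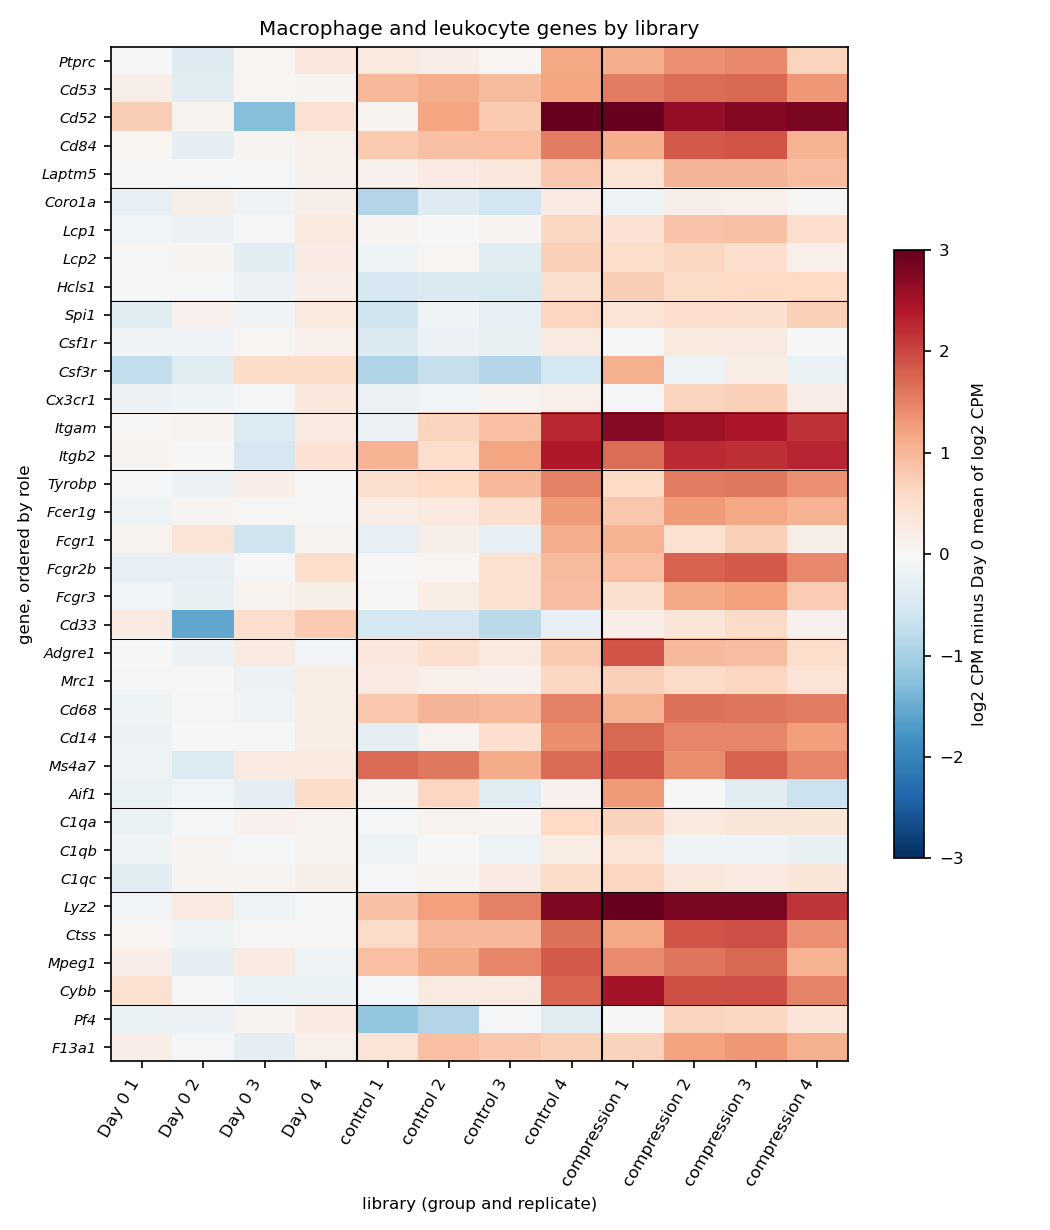
Log2 CPM minus the gene's Day 0 mean (colour, drawn between -3 and 3) for 36 genes, ordered by role, in 12 libraries. Control 4 was above the other 3 controls for 33 of the 36 genes (27.4% of all genes tested) and reached the median compression library for 18. For Cd53, Hcls1, Csf3r, Cd33 and Pf4 it stayed below every compression library. Cd52, Lyz2, Itgam and Itgb2 show the deepest colour.

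Day 2 compression was set against Day 2 control, a contrast that holds the laser step, the crosslinked polymer and restricted growth together. The log2 fold change is the fitted log2 ratio of the first group to the second, SE its standard error, and adjusted p the Benjamini-Hochberg value over all genes tested, called under 0.05. With edgeR and all 12 libraries, 0 of the 36 genes passed the threshold in either direction, as did 0% of the 15246 genes tested, and the lowest adjusted p among the 36 was 0.252. All 36 had a fold change above 0, against 51.0% of all genes tested, and their median log2 fold change was 0.47, against 0.00 for all genes. At an unadjusted p under 0.05, 23 were higher (6.73% of all genes) and 0 were lower (5.33%). Values of the 4 compression libraries lay above all 4 controls for 5 genes, Cd53, Hcls1, Csf3r, Cd33 and Pf4 (3.07% of all genes), and below them for 0 (2.70%). DESeq2 called 4 (Cd53, Fcgr2b, Hcls1 and Pf4, 0.304% of genes higher), limma-voom with sample weights 28 (7.47% of genes higher), and edgeR on the 8 Day 2 libraries alone 0 (0.0266% of genes higher). With compression replicates 2 and 3 summed to 1 library, edgeR called 0, and 15 of the 36 had an unadjusted p under 0.05.

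Without control replicate 4, 9 of the 36 rose under compression (0.338% of all genes tested): Cd14, Cd52, Cybb, Fcer1g, Fcgr2b, Hcls1, Itgam, Itgb2 and Lyz2. None of the 36 was lower (0.00650% of genes). The median log2 fold change became 0.68, against 0.01 for all genes, and 29 genes had all compression libraries above controls 1 to 3 (6.64% of all genes). With compression replicates 2 and 3 also summed, an alternative chosen after seeing the data, 5 remained (0.0652% of genes): Cd14, Cybb, Hcls1, Itgam and Lyz2.

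**Figure D3:**
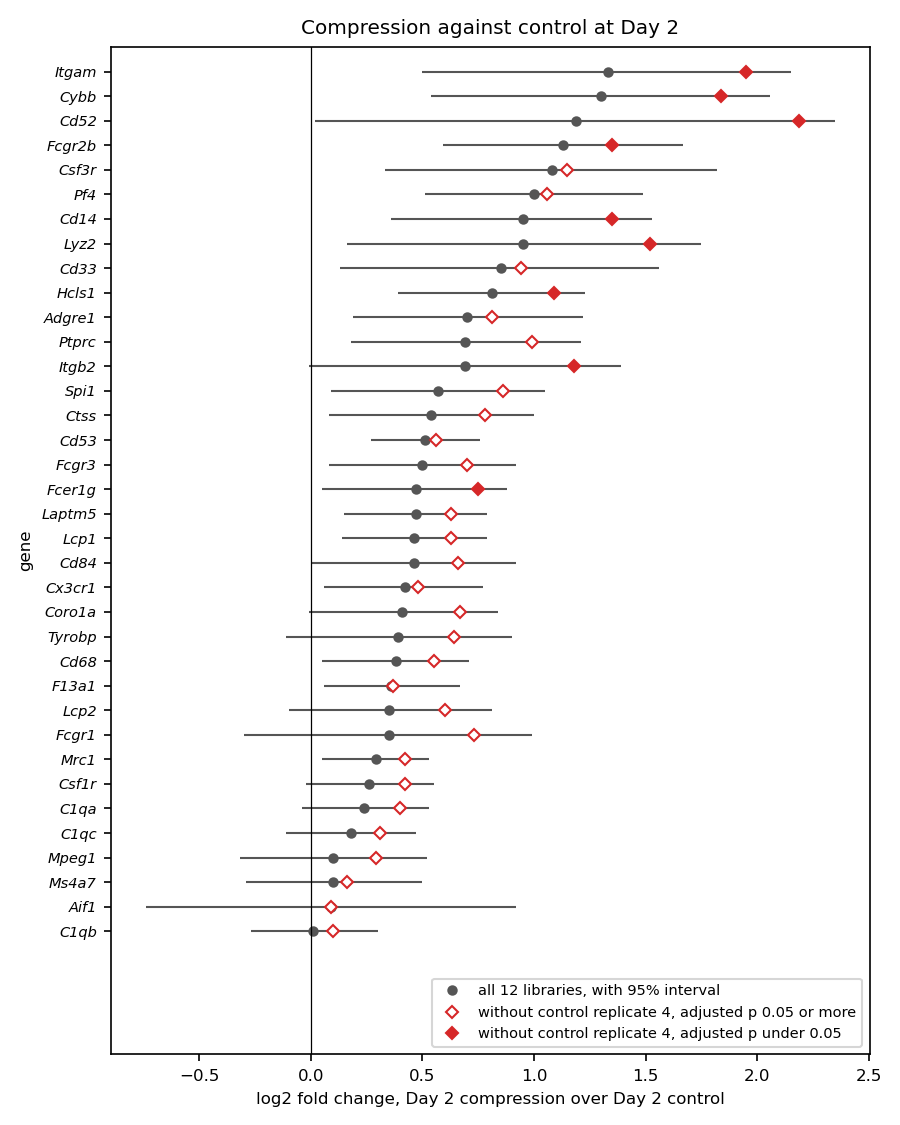
Log2 fold change of compression over control at Day 2 for 36 genes, from all 12 libraries (grey points, 95% intervals) and without control replicate 4 (diamonds, filled where the adjusted p is under 0.05). The grey points run from 0.01 for C1qb to 1.33 for Itgam, and 9 diamonds are filled.

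Pan-leukocyte surface and signalling genes mark immune cells as a class, and 4 of the 5 had an unadjusted p under 0.05 (median log2 fold change 0.51). Cd53, a tetraspanin, read 16.6, 17.6, 15.9 and 18.7 CPM in controls 1 to 4, and 24.1, 26.6, 27.1 and 20.2 CPM in compression 1 to 4 (log2 fold change 0.51, SE 0.12, adjusted p = 0.252). No control reached the lowest compression library. Laptm5, a lysosomal protein of leukocytes, read 29.4, 32.1, 34.3 and 47.1 CPM in controls and 35.8, 54.9, 54.6 and 51.5 under compression (0.47, SE 0.15, adjusted p = 0.346). Here control 4 exceeded compression 1. Without control 4, the log2 fold change was 0.56 for Cd53 (adjusted p = 0.0864) and 0.63 for Laptm5 (0.0711). Ptprc averaged 9.14 ± 3.56 (SD, n = 4) in controls and 14.6 ± 3.33 CPM under compression (14.4 in control 4), and Cd84, a SLAM family receptor, 21.9 ± 5.89 and 29.8 ± 9.28 (30.6 in control 4). Without control 4 their log2 fold changes were 0.99 (adjusted p = 0.0512) and 0.66 (adjusted p = 0.203). Cd52 averaged 1.22 ± 1.33 and 2.57 ± 0.708, and rose without control 4 (2.19, adjusted p = 0.0262). Exons of Crybg2 on the opposite strand cover 14.5% of the exon length of Cd52.

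Actin and adaptor genes shape the leukocyte cytoskeleton and relay its signals, and 2 of the 4 had an unadjusted p under 0.05 (median 0.44). Hcls1, a cortactin-like partner of the Arp2/3 complex, read 3.70, 3.88, 3.84 and 7.34 CPM in controls and 8.71, 7.76, 7.94 and 7.90 under compression (0.81, SE 0.20, adjusted p = 0.255). Controls 1 to 3 were close together, and control 4 was just below the lowest compression library. Without control 4, Hcls1 rose (1.09, SE 0.13, adjusted p = 0.00605). Lcp1, the actin bundler L-plastin, read 67.7, 65.3, 67.9 and 98.5 CPM against 86.6, 116, 119 and 90.6 (0.46, SE 0.15, adjusted p = 0.356), with controls 1 to 3 below and control 4 inside the compression range. Without control 4 it was 0.63 (adjusted p = 0.0664). Coro1a, an actin-binding coronin, averaged 7.36 ± 2.63 and 9.66 ± 0.972 CPM (11.1 in control 4), and the adaptor Lcp2 (SLP-76) 5.24 ± 1.81 and 6.62 ± 0.891 (7.85 in control 4). Without control 4 they stood at 0.67 (adjusted p = 0.0980) and 0.60 (adjusted p = 0.187).

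The lineage regulator and receptors (3 of 4 at an unadjusted p under 0.05, median 0.49) set the identity and survival of myeloid cells. Csf1r, which receives the survival signal of macrophages, read 28.7, 34.4, 33.7 and 47.3 CPM in controls and 38.1, 47.9, 47.2 and 38.9 under compression (0.26, SE 0.13, adjusted p = 0.439). Its groups overlapped through control 4, and the interval of the log2 fold change ran from -0.02 to 0.55. Without control 4 the value was 0.42 (interval 0.20 to 0.65, adjusted p = 0.131). Exons of Hmgxb3 on the opposite strand cover 15.1% of its exon length. Spi1 averaged 5.18 ± 2.07 and 7.55 ± 0.670 CPM, with 8.17 in control 4 and a log2 fold change of 0.86 without it (adjusted p = 0.0633). The fractalkine receptor Cx3cr1 averaged 23.1 ± 2.44 and 30.8 ± 7.79 CPM, with 25.8 in control 4 (0.48 without it, adjusted p = 0.275). The granulocyte growth factor receptor Csf3r averaged 0.933 ± 0.116 and 1.96 ± 0.896 CPM, and every compression library exceeded every control.

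The integrins Itgam (CD11b) and Itgb2 (CD18) pair as complement receptor 3, which grips opsonised targets. Itgam (chr7:128062640-128118491) read 2.67, 4.84, 5.61 and 14.6 CPM in controls and 20.1, 17.5, 16.2 and 13.5 under compression, the largest log2 fold change of the 36 genes with all libraries (1.33, SE 0.38, adjusted p = 0.309). Control 4 stood above compression 4, and controls 1 to 3 far below. Without control 4, Itgam rose 3.87-fold (log2 1.95, SE 0.23, adjusted p = 0.00605). Gm49368 shares 68.7% of the exon length of Itgam on the same strand, so its reads may be split with that model. Itgb2 averaged 7.78 ± 4.79 and 12.3 ± 2.18 CPM, with 14.8 in control 4, and rose without control 4 (1.18, adjusted p = 0.0457).

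Fc receptors bind antibody on targets, and ITAM adaptors carry their signal. Of these 6 genes, 4 had an unadjusted p under 0.05 (median 0.48). Fcgr2b, the inhibitory Fc receptor, read 6.89, 7.20, 9.55 and 13.3 CPM in controls and 12.9, 23.7, 24.8 and 18.7 under compression (1.13, SE 0.25, adjusted p = 0.252). Controls 1 to 3 and compression 2 to 4 were far apart, while control 4 lay just above compression 1. Without control 4 it rose (1.35, adjusted p = 0.0374), as did Fcer1g, the common Fc receptor gamma chain (0.75, adjusted p = 0.0262), which averaged 11.6 ± 4.37 and 15.8 ± 2.11 CPM. Fcgr3, an activating receptor, read 14.1, 16.0, 19.0 and 26.2 CPM in controls and 19.1, 31.0, 32.2 and 23.4 under compression (0.50, SE 0.20, adjusted p = 0.380), with control 4 above 2 of the 4 compression libraries. Without control 4 it was 0.70 (adjusted p = 0.132). Tyrobp averaged 18.7 ± 6.45 and 24.3 ± 6.62 CPM, with 27.6 in control 4 (0.64 without it, adjusted p = 0.234). Fcgr1, the high-affinity receptor, averaged 5.62 ± 2.79 and 7.03 ± 1.81 CPM, with 9.71 in control 4 (0.73 without it, adjusted p = 0.239). The sialic acid receptor Cd33 averaged 1.92 ± 0.301 and 3.43 ± 0.475 CPM without overlap.

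The macrophage surface genes include scavenger and pattern receptors, and 4 of the 6 tested had an unadjusted p under 0.05 (median 0.34). Cd14, a co-receptor for bacterial lipopolysaccharide, read 3.31, 4.39, 5.78 and 10.7 CPM in controls and 13.4, 11.3, 11.2 and 9.71 under compression (0.95, SE 0.27, adjusted p = 0.309). Control 4 exceeded compression 4 alone, and without it Cd14 rose (1.35, SE 0.19, adjusted p = 0.0111). Mrc1, the mannose receptor of tissue macrophages, read 65.2, 61.5, 60.3 and 84.3 CPM against 89.8, 81.6, 86.2 and 73.4 (0.29, SE 0.11, adjusted p = 0.377). Cd68 read 37.6, 43.6, 43.3 and 61.2 against 44.8, 67.4, 65.7 and 63.3 CPM (0.38, SE 0.15, adjusted p = 0.380). In both, controls 1 to 3 lay below every compression library and control 4 did not. Without control 4 the log2 fold change was 0.42 for Mrc1 (adjusted p = 0.0864) and 0.55 for Cd68 (adjusted p = 0.131). Ms4a7, a tetraspan protein of macrophages, read 7.11, 6.52, 4.76 and 7.15 CPM against 7.99, 5.77, 7.53 and 6.06 (0.10, 95% interval -0.29 to 0.50), with the groups intermingled, and 0.16 without control 4 (adjusted p = 0.707). Adgre1, which encodes the F4/80 antigen, ranged from 14.6 to 20.5 CPM in controls and from 17.2 to 44.5 under compression, and the calcium-binding protein gene Aif1 1.43 ± 0.415 and 1.54 ± 1.04.

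Complement C1q, which opens the classical complement pathway and tags apoptotic cells, had the lowest median of the roles (0.18), and 0 of the 3 genes had an unadjusted p under 0.05. C1qc read 20.2, 22.2, 24.9 and 30.8 CPM in controls and 32.4, 26.2, 25.2 and 26.8 under compression (0.18, 95% interval -0.11 to 0.47, adjusted p = 0.584). Without control 4 its log2 fold change was 0.31 (interval 0.03 to 0.58, adjusted p = 0.300). C1qa averaged 23.5 ± 4.84 and 27.7 ± 3.63 CPM, with 30.6 in control 4 (0.40 without it, adjusted p = 0.168). C1qb averaged 19.7 ± 2.45 and 19.8 ± 4.27 CPM, and its log2 fold change of 0.01 had an interval from -0.27 to 0.30 (0.10 without control 4, adjusted p = 0.739). All 3 subunits were highest, among compression libraries, in compression 1.

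The lysosomal and oxidase effectors digest and oxidise engulfed material, and 3 of the 4 tested had an unadjusted p under 0.05 (median 0.75). Lyz2 read 37.5, 47.7, 58.6 and 141 CPM in controls and 168, 145, 145 and 90.0 under compression (0.95, SE 0.36, adjusted p = 0.378), so control 4 sat among the compression libraries. Without it, Lyz2 rose 2.87-fold (1.52, SE 0.20, adjusted p = 0.0111). Lyz1 is a near-identical copy, and reads of the pair may be split. Cybb, the catalytic subunit of phagocyte NADPH oxidase, read 5.76, 7.17, 7.24 and 19.9 CPM in controls and 33.7, 22.6, 22.9 and 16.8 under compression (1.30, SE 0.35, adjusted p = 0.309), and rose 3.58-fold without control 4 (1.84, SE 0.23, adjusted p = 0.00605). Mpeg1, which encodes the pore-forming perforin-2, read 60.9, 71.6, 88.6 and 115 CPM against 86.1, 99.1, 107 and 67.1 (0.10, 95% interval -0.32 to 0.52), with the highest value in control 4. Without it the log2 fold change was 0.29 (interval -0.09 to 0.67, adjusted p = 0.441). Ctss ranged from 22.9 to 48.5 CPM in controls, with control 4 highest, and from 34.5 to 59.1 under compression (0.78 without control 4, adjusted p = 0.0894).

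The secreted and coagulation genes did not follow control 4. Pf4, a chemokine of platelets that fetal macrophages also express, read 2.19, 2.64, 4.72 and 3.77 CPM in controls and 4.94, 7.73, 7.47 and 6.38 under compression (2.00-fold, SE 0.23 on the log2 scale, adjusted p = 0.252), without overlap. F13a1, the A subunit of clotting factor XIII, read 41.4, 59.3, 55.9 and 52.0 CPM against 51.6, 72.7, 77.7 and 65.9 (0.36, SE 0.14, adjusted p = 0.380). In neither gene was control 4 the highest control, and leaving it out gave log2 fold changes of 1.06 (adjusted p = 0.12) and 0.37 (adjusted p = 0.317).

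**Figure D4:**
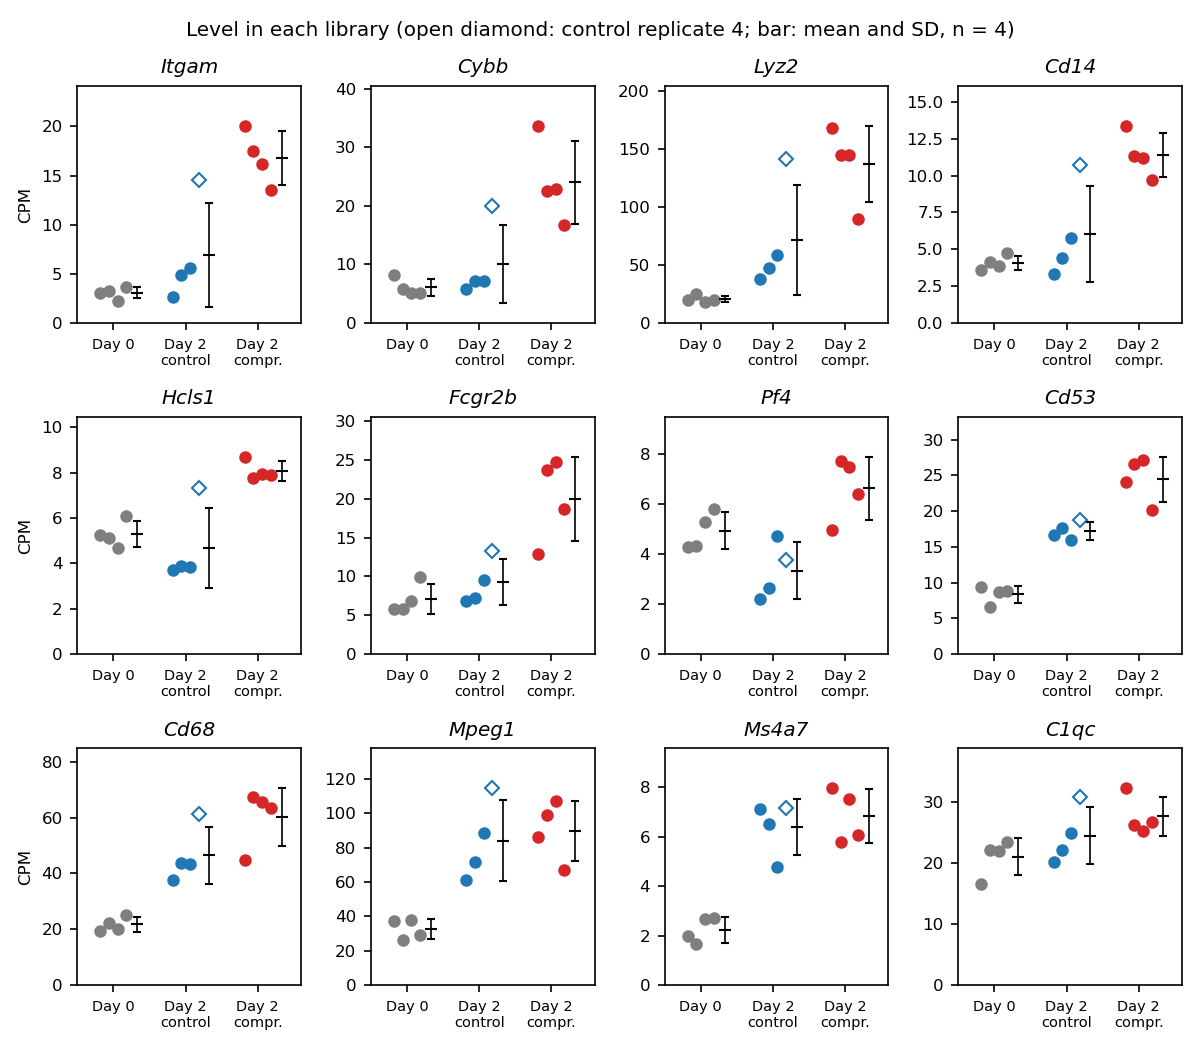
CPM of 12 genes in each library by group, on linear axes that start at 0, with control replicate 4 as an open diamond and the group mean and SD (n = 4) as a bar. For Itgam, Cybb, Lyz2 and Cd14 the diamond (14.6, 19.9, 141 and 10.7 CPM) lies among the compression libraries, while for Pf4 and Cd53 all compression libraries lie above all controls.

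Control replicate 4 was above the other 3 controls for 33 of the 36 genes (27.4% of all genes tested) and over 2 times their mean for 7 (2.66% of all genes). The exceptions were Aif1, Pf4 and F13a1. Control 4 reached or exceeded the lowest compression library for 31 of the 36 genes and the median compression library for 18. No share of all genes is given for these overlaps, and a gene without a group difference would often show them too. The largest ratios to the mean of controls 1 to 3 were 5.68 for Cd52, 3.34 for Itgam, 2.96 for Cybb and 2.95 for Lyz2. Of the list for Kupffer cells, the liver macrophages, Vsig4 had no count in any library. Clec4f had 1 count in all libraries, in control 4 (0.0639 CPM). Clec4g had 3 counts in all, at 0.128 CPM in control 4 and 0.0380 CPM in compression 1. Such low counts do not show whether liver macrophages were present. Cd5l, a scavenger protein of Kupffer and other macrophages, stood at 3.83 CPM in control 4 against 0.544 to 0.804 CPM in controls 1 to 3, and Timd4 at 1.28 CPM against 0.0965 to 0.172. The erythroid gene Slc4a1 stood at 17.0 CPM against 0.274 to 0.515 CPM in controls 1 to 3. The part of liver tissue in the level of these genes in control 4 was not tested.

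Compression replicate 1 had another mix of these genes. It was above compression 2 to 4 for 15 genes and below them for 15. No share of all genes is given for these counts, so they do not show a trait of these genes. Over all genes, compression 1 also lay apart. Its mean chi-square per gene was 51.5, 43 and 123 against compression 2, 3 and 4, while compression 4 had 38.6 and 57.6 against compression 2 and 3. Aif1 was 3.00 times their mean, Csf3r 2.14 and Adgre1 2.10, whereas Tyrobp was 0.535 and Fcgr2b 0.578 times. The scavenger receptor gene Marco stood at 30.6 CPM in compression 1 and 0.405 to 0.680 CPM in compression 2 to 4, and C3, the central complement protein, at 60.4 against 6.12 to 7.06. Itgax (CD11c), by contrast, stood at 0.761 CPM against 14.1 to 18.5. Without compression 1, 0 of the 36 genes passed the threshold (0.0586% of all genes were higher), and the lowest adjusted p was 0.0579.

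Over 2 days of culture in uncrosslinked polymer, 12 of the 36 genes rose from Day 0 (22.6% of all genes tested rose) and 0 fell (17.6% fell). The 12 were Cd53, Cd68, Cd84, Ctss, F13a1, Fcer1g, Itgam, Itgb2, Lyz2, Mpeg1, Ms4a7 and Tyrobp. By role, 3 of 4 lysosomal and oxidase effectors, both integrins and 2 of 5 pan-leukocyte genes rose, and 0 of the actin, lineage and C1q genes did. The median log2 fold change was 0.40, against 0.02 for all genes. All 4 controls lay above all Day 0 libraries for 12 genes (20.4% of all genes). Without control 4, 10 rose (19.6% of all genes rose), Itgam and Fcer1g no longer passing, and Coro1a, Csf1r and Hcls1 fell (17.1% of all genes fell). The median became 0.13, against 0.00 for all genes, so this library moved the median.

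From Day 0 to control, Lyz2 had the largest log2 fold change of the 36 genes. It averaged 20.6 ± 2.79 CPM at Day 0 (18.5 to 24.7) and 71.3 ± 47.5 in controls (log2 fold change 1.79, SE 0.38, adjusted p = 0.00322). Ms4a7 read 1.97, 1.64, 2.66 and 2.70 CPM at Day 0, all below the lowest control at 4.76 (1.48, SE 0.20, adjusted p = 5.84e-05). Mpeg1 read 37.3, 26.5, 38.1 and 29.0 CPM at Day 0, against 60.9 or more in every control (1.35, SE 0.20, adjusted p = 1.90e-04). Cd68 and Cd53 likewise did not overlap Day 0, at 19.3 to 25.2 CPM for Cd68 (1.09, adjusted p = 1.47e-04) and 6.55 to 9.41 for Cd53 (1.03, adjusted p = 2.29e-05). Leaving out control 4 left these 5 genes higher, with log2 fold changes of 1.21, 1.41, 1.15, 0.91 and 0.97.

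Several genes were near their Day 0 level in controls. C1qa averaged 20.5 ± 2.07 CPM at Day 0 and 23.5 ± 4.84 in controls, C1qb 19.9 ± 1.67 and 19.7 ± 2.45, and C1qc 21.0 ± 3.03 and 24.5 ± 4.62, none passing the test. Csf1r read 36.5, 36.5, 40.4 and 43.2 CPM at Day 0 (log2 fold change -0.13, adjusted p = 0.463), and Spi1 averaged 5.29 ± 0.995 and 5.18 ± 2.07. The lowest fold change was that of Csf3r (-0.88, adjusted p = 0.0616), followed by Cd33 (-0.79, 0.0757) and Pf4 (-0.58, 0.0617). Hcls1 was 5.26, 5.12, 4.68 and 6.08 CPM at Day 0 and 3.70 to 3.88 in controls 1 to 3, with control 4 at 7.34.

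Over the same time under compression, 25 of the 36 rose from Day 0 (26.6% of all genes tested rose) and 0 fell (22.5% fell). The median log2 fold change was 0.99, against 0.02 for all genes, and all compression libraries lay above all Day 0 libraries for 26 genes (23.5% of all genes). All 5 pan-leukocyte genes, both integrins, all 4 lysosomal and oxidase effectors and 5 of 6 macrophage surface genes rose, against 0 of the 4 lineage genes. The 11 that did not pass were Coro1a, Lcp2, Spi1, Csf1r, Csf3r, Cx3cr1, Fcgr1, Cd33, Aif1, C1qb and Pf4. Lyz2 averaged 137 ± 33.2 CPM (2.74, SE 0.39, adjusted p = 1.65e-04), Itgam 16.8 ± 2.75 against 3.07 ± 0.564 (2.45, SE 0.40, adjusted p = 3.29e-04) and Cybb 24.0 ± 7.05 against 6.09 ± 1.45 (1.98, SE 0.36, adjusted p = 7.58e-04). Cd52 had a log2 fold change of 2.73 (adjusted p = 0.00235) from a Day 0 level of 0.375 ± 0.178 CPM. Both Day 2 comparisons use the same Day 0 libraries, so their values are given side by side: for Itgam 2.18-fold in control and 5.46-fold under compression, and on the log2 scale for Cybb 0.68 and 1.98, for Fcgr2b 0.35 and 1.48, and for Mpeg1 1.35 and 1.45.

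**Figure D5:**
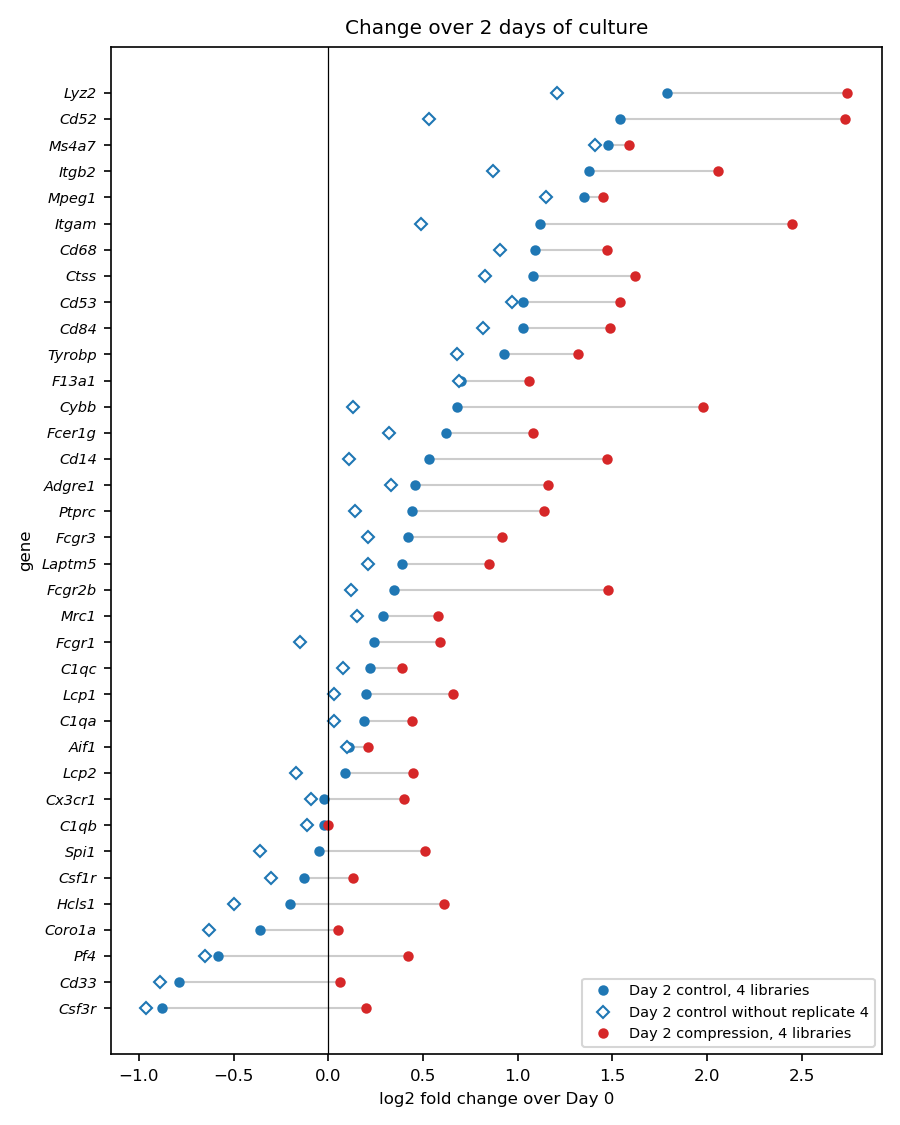
Log2 fold change over Day 0 of 36 genes in Day 2 control (blue, open diamonds without replicate 4) and Day 2 compression (red), joined by a line per gene. Lyz2 is highest in both groups (1.79 and 2.74), and the gap between groups is widest for Itgam (2.18-fold and 5.46-fold).

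Genes that act with these were taken from companion lists. Of the NADPH oxidase partners of Cybb, 0 passed in compression against control. Without control 4, the cytosolic subunit Ncf1 (0.87, adjusted p = 0.0245) and the GTPase Rac2 (0.95, adjusted p = 0.0262) rose. Of 12 integrin and actin partners, 6 rose without control 4, led by Itgal, the alpha subunit of the integrin LFA-1 (2.19, adjusted p = 0.00641), and the others were Arhgdib, Nckap1l, Rac2, Fermt3 and Myo1f. Itgal read 0.547, 0.515, 0.714 and 3.32 CPM in controls and 3.42, 2.45, 2.40 and 2.56 under compression. Its low controls and its high control 4 repeat the order seen in Itgam. None of these rose with control 4 kept.

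Of 12 monocyte-recruiting chemokines and receptors tested, 0 passed with all libraries and Ccl3 (1.73) and Ccl9 (1.71) rose without control 4, each with an adjusted p of 0.00605. Ccl3 read 2.28, 2.20, 2.75 and 6.0 CPM in controls and 6.92, 7.59, 8.51 and 8.77 under compression, without overlap. Of 10 complement partners of C1q, 0 passed with all libraries, and Serping1, the C1 inhibitor, rose without control 4 (0.67, adjusted p = 0.0156). Of 15 ITAM and Fc receptor signalling genes tested, 0 passed with all libraries, where the exchange factor Vav1 stood at 0.55 (adjusted p = 0.374), and Vav1 rose without control 4 (0.80, adjusted p = 0.0470). From Day 0, 6 of 10 CSF1 and growth factor genes rose in controls (22.6% of all genes) and 9 of 10 under compression (26.6% of all genes). Csf1, the CSF1R ligand, read between 25.4 and 35.2 CPM at Day 0, between 32.5 and 44.4 in controls and between 35.7 and 40.4 under compression. It rose in controls (0.34, adjusted p = 0.0284) but did not pass without control 4 (0.21, adjusted p = 0.116). No gene of that list passed in compression against control.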

How the data were processed

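RNA of 12 libraries in 3 groups of 4 was analysed. The authors deposited 1 table of raw counts per gene symbol, whole numbers not normalized. Per the submitters' processing notes fastp, STAR and the mm10 build were used. For versions, the counting step, annotation and strand setting the sources used here hold no statement, so antisense neighbours and near-identical copies cannot be separated.

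Of 24421 symbols, 4505 had no count. Genes were kept with filterByExpr (min.count 10, min.total.count 15), which left 15246. Counts were scaled with TMM and fitted with edgeR 4.0.16 in R 4.3.3 (glmQLFit robust, glmQLFTest, all 12 libraries, group as the only term), Benjamini-Hochberg adjustment over all genes tested and a threshold of 0.05. Unless named otherwise, adjusted p-values come from this test, intervals are 95%, and CPM use TMM-scaled totals. A count of 0 allows up to 3 counts, which is 0.0899 to 0.214 CPM, counting error only. The code was tested on simulated data.

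Alternatives were DESeq2 1.42.0, its size factors in edgeR, no low-count filter, limma-voom 3.58.1 with sample weights, the 8 libraries compared alone, a replicate block, each library left out, and compression replicates 2 and 3 summed. Genes named with values in every Day 2 library are, in each role, the one with the highest mean level, the 8 with the smallest p in compression against control and the 4 with the smallest p in control against Day 0. Values of Lck, Rora, Il7r, Ly6c1, Ly6c2, Fn1, Itgal, Ccl3, Csf1, Marco, Itgax, C3, Cd5l, Timd4, Slc4a1 and Xist were singled out after they were seen. The genes, lists and tests were chosen with earlier results of these data known. All 38 symbols matched GENCODE M21 (GRCm38) once, and promoters are from RefSeq GRCm38.p6.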

Additional observations from a re-analysis of the deposited data

Results flagged for a closer look

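Of 108 sets of 4 libraries (36 genes in 3 groups), 10 had a library far from the other 3. The rule used would flag about 1 in 20 independent sets by chance. These sets share the same 12 libraries and are not independent, so that rate cannot be set against the 10. No share of all genes is given for such flags. In 6, control replicate 4 was far above the other controls: Ptprc at 14.4 CPM (others 6.76 to 7.95), Cd52 at 3.19 (0.354 to 0.755), Cd84 at 30.6 (18.1 to 19.5), Lcp1 at 98.5 (65.3 to 67.9), Hcls1 at 7.34 (3.70 to 3.88) and Cybb at 19.9 (5.76 to 7.24). In 3, compression replicate 1 stood off: C1qa at 33.1 CPM (others 25.1 to 26.3) and C1qb at 26.2 (17.1 to 18.2) were high, and Itgb2 at 9.01 (12.9 to 13.7) was low. The last was Laptm5 in Day 0 replicate 4, at 30.0 CPM (26.0 to 26.5).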

How the results depend on the processing

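For compression against control the count of genes called (0 of 36 with edgeR) was 4 with DESeq2, 28 with limma-voom and sample weights, 5 with control replicate 4 left out and compression replicates 2 and 3 summed, and 0 to 9 when 1 library was left out (9 without control 4, 0 without any other). It was 0 with DESeq2 size factors in edgeR, without the low-count filter, with only the 8 libraries, and with compression replicates 2 and 3 summed. At an unadjusted p under 0.05, 23 genes were higher, 15 with compression replicates 2 and 3 summed, and 14 to 32 when 1 library was left out. Compression libraries lay above all controls for 5 genes, and for 29 without control 4. Controls lay below all Day 0 libraries for 0 genes, and for 3 without control 4. No share of all genes is given for these counts below Day 0, so whether they are unusual cannot be read from them. Calls lower in control than Day 0 (0 of 36) ranged from 0 to 3 over the alternatives. The sign changed for Ms4a7 without control 3 and Mpeg1 without control 1: leaving out 1 library gave log2 fold changes from -0.01 to 0.17 for Ms4a7 and from -0.03 to 0.29 for Mpeg1. It also changed for C1qb and Aif1, whose values lay near 0. Counts of genes higher than Day 0 stayed within 1.5 times in each alternative run. Replicate numbers did not pair the libraries (same-number correlations of deviations -0.181 to 0.166), and a replicate block gave 0 calls, with 26 genes at an unadjusted p under 0.05. The cause of these shifts was not tested. Depth limits Cd52, Csf3r, Aif1 and Cd33, whose lowest counts are under 20.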
